A study of Mus musculus with 6 samples.

Results

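Chromatin accessibility was examined at 9 genes for RNA-binding proteins of neurons, Elavl2, Elavl3, Elavl4, Rbfox1, Rbfox2, Rbfox3, Nova1, Nova2 and Celf2. An accessible interval was assigned to one of these genes if its midpoint lay inside the gene, or if its nearest protein-coding gene end belonged to that gene and lay within 300 kb. Of 52223 intervals 106 met this rule, and 104 of the 106 had enough fragments to be tested. The outermost interval taken in lay 298.7 kb from Nova1 (log2 fold change 0.22), and the nearest of 9 left out by the limit lay 344.3 kb from Nova1 (-0.15). Position chose the intervals, but the family was put together with results of these same libraries known, the lower signal inside Elavl4 among them. The values below therefore describe the genes, and none is independent support for a change in the family.

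The libraries were made by ATAC-seq, which uses a transposase, Tn5, to place adapters wherever DNA is accessible. Nr6a1OE denotes 3 libraries of neural progenitors grown from mouse embryonic stem cells and given a lentivirus carrying Nr6a1-2A-mScarlet3, and mScarlet denotes 3 libraries given a lentivirus carrying mScarlet3 alone. Both groups were exposed to the GSK3 inhibitor CHIR99021 at 5 µM on day 2, and between day 3 and day 5 to 100 nM retinoic acid with Smoothened agonist at 10 nM, which alone was kept afterwards. Transduction was on day 5, and on day 9 cells were sorted by mScarlet3 fluorescence, 50000 per library, so a library holds the cells that carried virus, whatever their type. The labels neither name a promoter for either virus nor say whether the libraries of a group are separate cultures, and the p-values cover the spread among these libraries alone, which may be technical.

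Nr6a1 is an orphan nuclear receptor, known mainly as a repressor. The proteins encoded by the 9 genes act on RNA rather than on chromatin. Elavl2, Elavl3 and Elavl4 are the neuronal Hu proteins, which bind U-rich stretches of transcripts and affect their stability, translation and splicing as neurons differentiate. Rbfox and Nova proteins are splicing regulators that include or skip exons according to where they bind near them, and Celf2 binds GU-rich RNA and acts in splicing and mRNA turnover. Rbfox3 carries the epitope of the NeuN antibody, a common marker of mature neurons, whereas Rbfox2 and Celf2 are also expressed well outside the nervous system.

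Each library held between 6857763 and 8030029 fragments in intervals. Among markers of the labelled cell type, 9 of 12 neural progenitor genes had an accessible interval over an annotated start, with summed signal, in fragment counts scaled to library size (CPM), of 927 to 946 in Nr6a1OE and 903 to 959 CPM in mScarlet. For post-mitotic neuron markers it was 6 of 12 genes, with sums of 264 to 273 CPM in Nr6a1OE and 276 to 293 CPM in mScarlet, which did not overlap. Start intervals were present for 3 of 6 pluripotency genes (none at Pou5f1, Nanog or Zfp42), for 1 of 6 mesoderm genes, 1 of 6 endoderm genes, 2 of 6 endothelial and blood genes, 2 of 5 neural crest genes and 1 of 7 glial genes. The endoderm start signal, at 1 gene, did not overlap either but was higher in Nr6a1OE. It was 33.48 to 39.24 CPM in Nr6a1OE and 32.35 to 33.47 CPM in mScarlet. How often such sums are apart among other genes was not computed. The part that a different share of neurons might have in the results below was not tested. A lower value in such bulk libraries can come from fewer cells with the interval open or from less accessibility per cell, and these cannot be told apart.

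Annotated transcription starts and their upstream sequence were taken from RefSeq on GRCm38.p6, the assembly of mm10, whose table held 21 start windows for 8 of the genes, all but Rbfox2. All 6 starts of Elavl2, all 4 of Elavl4, 3 of 5 of Celf2 and 1 of 2 of Rbfox1 lay in an accessible interval. So did the only ones of Elavl3, Nova1 and Nova2. The only Rbfox3 start listed did not, but it lay inside the gene, at chr11:118761041. No start window was listed at the upstream end of Rbfox3, chr11:118911597. For Elavl4 and Celf2, the genes with an interval or sum past the threshold, the 250 bases before 4 of these covered starts are printed on the strand of the gene, ending at the base next to the start. Capitals mark AGGTCA, the half-site that nuclear receptors bind, CAGCTG, an E-box of the kind bound by proneural basic helix-loop-helix factors, and GGGCGG, the GC box, each searched on both strands.
Elavl4, outer start, chr4:110351912-110352161, minus strand: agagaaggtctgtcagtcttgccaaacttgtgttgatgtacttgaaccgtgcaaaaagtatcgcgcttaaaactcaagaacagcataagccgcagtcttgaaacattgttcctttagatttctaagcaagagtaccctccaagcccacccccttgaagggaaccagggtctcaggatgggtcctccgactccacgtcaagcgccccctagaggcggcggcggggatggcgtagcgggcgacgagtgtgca
Elavl4, inner start, chr4:110287528-110287777, minus strand: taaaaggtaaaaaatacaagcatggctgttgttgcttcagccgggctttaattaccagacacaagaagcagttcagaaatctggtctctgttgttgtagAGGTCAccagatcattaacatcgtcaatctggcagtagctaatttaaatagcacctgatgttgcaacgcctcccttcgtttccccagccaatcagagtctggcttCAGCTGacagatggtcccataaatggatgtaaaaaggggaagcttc
Celf2, start in its strongest interval, chr2:6872036-6872285, minus strand: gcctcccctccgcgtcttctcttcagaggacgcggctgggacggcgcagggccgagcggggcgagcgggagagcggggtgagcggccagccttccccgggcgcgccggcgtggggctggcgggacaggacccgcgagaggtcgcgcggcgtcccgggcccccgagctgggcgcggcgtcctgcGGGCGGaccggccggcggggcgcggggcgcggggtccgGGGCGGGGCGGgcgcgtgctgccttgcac
Celf2, outer covered start, chr2:7081303-7081552, minus strand: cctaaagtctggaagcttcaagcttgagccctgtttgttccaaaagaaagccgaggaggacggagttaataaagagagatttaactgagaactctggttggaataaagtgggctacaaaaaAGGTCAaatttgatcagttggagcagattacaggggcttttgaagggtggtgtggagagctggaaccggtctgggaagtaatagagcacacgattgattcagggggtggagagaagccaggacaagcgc

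The windows shown are the outermost covered start of each gene, the strongest interval, and an inner Elavl4 start chosen because it holds motifs. The innermost Elavl4 start and the innermost Celf2 start, not shown, and the outer Elavl4 window held none of these motifs. In the inner Elavl4 window printed, a half-site began 151 bases and an E-box 46 bases upstream of the start. The strong Celf2 window held 3 GC boxes, at 67, 29 and 24 bases upstream, the last a pair that overlaps by a base, and the outer covered Celf2 window a half-site 129 bases upstream. Over windows that also hold 50 bases after the start, AGGTCA occurred in 3 of 21 member windows (1 of Celf2 and 2 overlapping windows of Elavl4) and in 16.3% of all 32851 RefSeq promoter windows. The direct repeat of the half-site with no spacer, AGGTCAAGGTCA, the element that Nr6a1 is known to bind, occurred in 0 of 21 and in 0.00609% of all. CAGCTG occurred in 8 of 21 against 16.3% of all, GGGCGG in 9 of 21 against 35.7%, TATAAA in 2 of 21 against 13.6%, and TTCAGCACC, the first part of the element bound by the neuronal gene repressor REST, in 0 of 21 against 0.371%. Several windows of one gene overlap, so these counts are descriptions, and they say nothing of binding. GC content of the member windows ran between 43.7% and 80.3%, with a median of 52.7% over all windows.

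The member intervals were 260 to 3127 bp long, with a median of 1106 bp against 1023 bp for all intervals. Their mean count per library was between 8.33 and 779.5 fragments with a median of 45.75, against 53.0 for all intervals, so a typical one carried slightly less signal. Celf2 had 26 intervals (25 tested), Rbfox3 21, Rbfox1 20 (19 tested), Rbfox2 14, Elavl4 7, Elavl2 and Nova2 5 each, and Elavl3 and Nova1 4 each. Rbfox1 and Celf2 are long, 1528 and 857 kb, and held 1.11 and 2.57 intervals per 100 kb of gene body, whereas the short Elavl3 and Nova2 genes, 37.1 and 39.4 kb, held 10.8 and 10.1 per 100 kb.

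The strongest interval of a gene is taken as the one with the highest mean CPM, and its level is given per kb of its own length. A shorter interval can be higher per kb, as at Elavl2, Nova2 and Rbfox1. At Rbfox1, chr16:6348418-6349611 had 10.7 CPM per kb in mScarlet. That of Rbfox2 (chr15:77305824-77307403, 1.82 kb inside one end of the gene) was the highest, at 66.8 ± 0.57 CPM per kb in Nr6a1OE and 67.1 ± 2.03 CPM per kb in mScarlet (SD, n = 3 each), above 98.8% of all intervals in mScarlet. Nova1 reached 39.2 ± 1.80 in Nr6a1OE and 42.1 ± 1.74 CPM per kb in mScarlet at its start (chr12:46818038-46820025), and Celf2 40.4 ± 3.68 in Nr6a1OE and 42.1 ± 1.80 CPM per kb in mScarlet at chr2:6871656-6873019. In mScarlet the ranges of Nova1 and Celf2 overlapped, so their order is not resolved. Elavl4 followed with 33.7 ± 1.96 CPM per kb in Nr6a1OE and 34.8 ± 1.66 in mScarlet at its outer start (chr4:110350901-110352281), then Elavl3 with 32.1 ± 1.14 in Nr6a1OE and 31.9 ± 0.48 in mScarlet at its start (chr9:22050127-22052161). Rbfox3 had 30.6 ± 0.69 CPM per kb in Nr6a1OE and 28.4 ± 0.86 in mScarlet at chr11:118908272-118910354, 2.28 kb inside its upstream end. These values each stood apart from those of the next gene in mScarlet. Elavl2, with 24.7 ± 1.36 CPM per kb in Nr6a1OE and 26.4 ± 1.24 in mScarlet at chr4:91374606-91376889, and Nova2, with 23.6 ± 1.90 in each group at chr7:18949396-18951639, overlapped each other. Rbfox1 was last, with 9.23 ± 1.07 CPM per kb in Nr6a1OE and 8.81 ± 0.68 in mScarlet at chr16:7145764-7147471, 266 kb inside the gene and above 54.7% of all intervals. None of these 9 intervals passed the test between groups, and their log2 fold changes lay between -0.10 at Nova1 and 0.11 at Rbfox3.

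**Figure D1:**
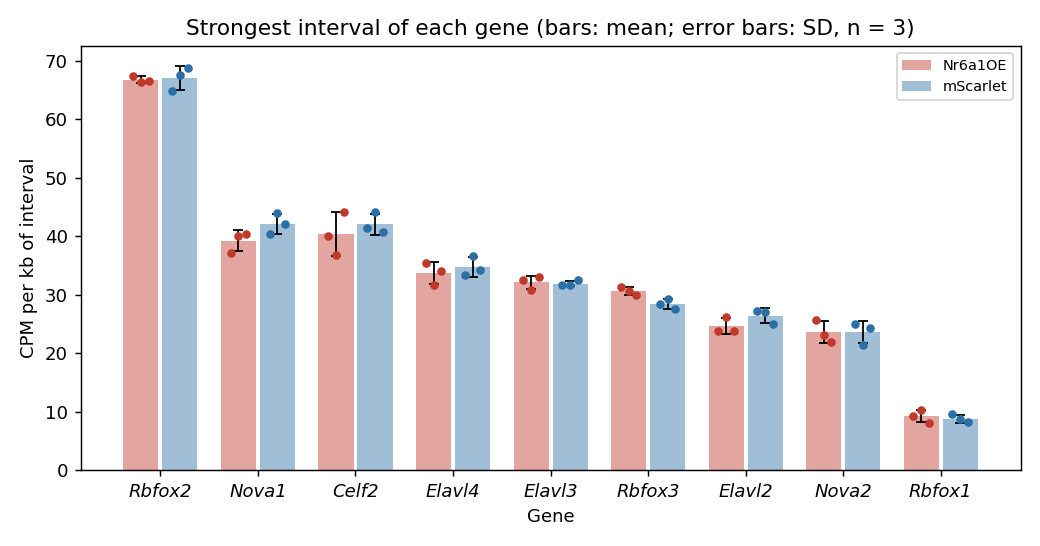
Accessibility per kb of the strongest interval of each gene, in CPM per kb, with genes ordered by their mScarlet mean. Bars are means, error bars are SD over 3 libraries and points are single libraries of Nr6a1OE (red) and mScarlet (blue); the Rbfox2 bars stand near 67 and the Rbfox1 bars near 9 CPM per kb.

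Between groups, 3 of the 104 member intervals closed, meaning that they were lower in Nr6a1OE with an edgeR adjusted p under 0.05, which is 2.88% against a background of 1.26% of all intervals tested. None opened, against a background of 0.469%; at an unadjusted p under 0.05, 7 were higher (6.73%, background 5.73%) and 13 lower (12.5%, background 6.87%). DESeq2 opened and closed 0 of them, and 3 and 97 of all intervals. The 3 Nr6a1OE libraries all lay below the 3 mScarlet libraries at 12 member intervals (11.5%, background 8.73%) and above them at 9 (8.65%, background 7.89%). The point estimate was lower in Nr6a1OE at 65 of the 104 intervals, or 62.5% against 49.2% of all intervals, and the median log2 fold change was -0.05 against 0.0038 over all. The 65 were not spread evenly: Elavl4 gave 7 of 7, Rbfox1 15 of 19, Celf2 17 of 25 and Elavl2 4 of 5, while Rbfox2 gave 7 of 14, Rbfox3 10 of 21, Nova1 2 of 4, Nova2 2 of 5 and Elavl3 1 of 4. By position, 7 of 12 intervals over an annotated start of their own member gene were lower, 46 of 75 others inside the genes and 12 of 17 others outside them. The medians were -0.05, -0.04 and -0.05. The others outside include chr4:110152172-110153221 near Elavl4, which lies over a start of another gene, Gm33070.

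**Figure D2:**
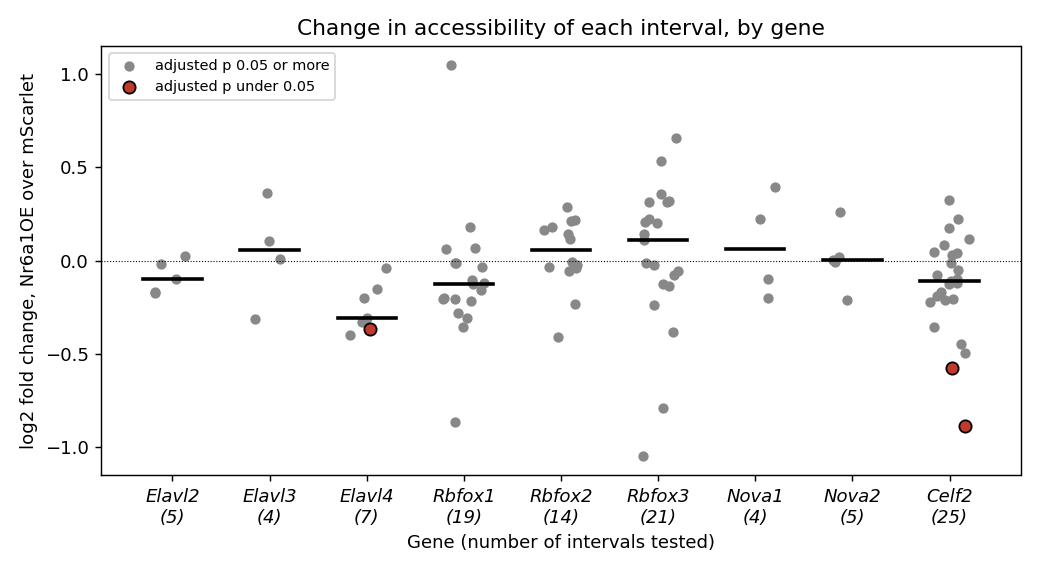
Log2 fold change of accessibility, Nr6a1OE over mScarlet, for each of the 104 tested intervals grouped by gene, with the number of intervals in brackets and the median as a bar. Red points passed an adjusted p of 0.05, 1 at Elavl4 and 2 at Celf2; all 7 Elavl4 points lie below 0.

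Elavl4, whose protein HuD stabilises transcripts such as that of the growth-cone protein Gap43, closed at a single interval, chr4:110289783-110290968, inside the gene and 61.6 kb from its upstream end. This interval had 19.0, 15.8 and 15.3 CPM in Nr6a1OE 1, 2 and 3 and 21.5, 18.5 and 23.98 CPM in mScarlet 1, 2 and 3. The groups overlapped, since Nr6a1OE 1 exceeded mScarlet 2. Its log2 fold change was -0.37 (SE 0.10, edgeR adjusted p = 0.0279). The call held in 2 of the 6 fits that each left out a library, being lost without Nr6a1OE 2, Nr6a1OE 3, mScarlet 1 or mScarlet 3 (adjusted p 0.00935 to 0.353 over the 6), and in DESeq2 its adjusted p was 0.926.

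The other 6 Elavl4 intervals did not pass, and their estimates ran below 0 as well. At chr4:110285252-110286634, beside the inner start, signal was 13.6, 13.99 and 14.9 CPM in Nr6a1OE and 19.0, 18.1 and 15.9 CPM in mScarlet, a log2 difference of -0.31 (SE 0.11, adjusted p = 0.148) with no overlap of the groups. A gap of 20 bp separates it from the interval over the inner start (chr4:110286655-110287881), which had 9.80, 10.0 and 13.2 CPM in Nr6a1OE and 12.05, 13.0 and 13.2 CPM in mScarlet. A fragment may be counted in both of these neighbours, so they are not independent. Outside the gene, chr4:110152172-110153221, 51.0 kb beyond its downstream end, had 5.11, 5.79 and 7.07 CPM in Nr6a1OE and 7.67, 8.74 and 6.49 CPM in mScarlet (log2 difference -0.33, SE 0.17, adjusted p = 0.403). The weakest, chr4:110128851-110129831, lay 74.4 kb beyond that end, with 3.27, 4.24 and 3.79 CPM in Nr6a1OE and 4.65, 5.68 and 4.62 CPM in mScarlet. Here too the groups did not overlap, at an estimate of -0.40 (SE 0.21, adjusted p = 0.439). At chr4:110311626-110312710 the values were 20.9, 18.2 and 17.2 CPM in Nr6a1OE and 19.7, 20.1 and 22.2 CPM in mScarlet, and the groups overlapped.

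The strongest Elavl4 interval, over the outer start whose upstream sequence is printed above, had the smallest difference of the 7. It had 49.0, 43.7 and 47.1 CPM in Nr6a1OE and 46.1, 50.6 and 47.3 CPM in mScarlet (log2 difference -0.04, SE 0.07, adjusted p = 0.861). The median over the 2 intervals at starts of Elavl4 itself was -0.12 and over the 5 others -0.33, both as descriptions. All 7 estimates stayed below 0 in each of the other fits of these intervals, except that without Nr6a1OE 2 the outer start interval moved to 0.0017 and 6 of 7 were below 0.

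**Figure D3:**
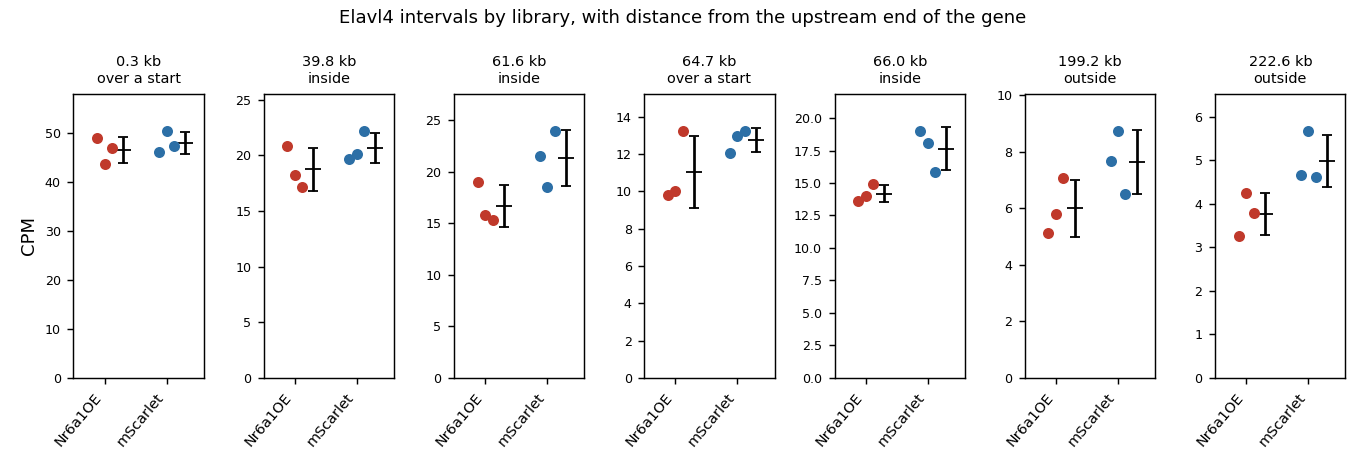
CPM of each of the 7 Elavl4 intervals in the 3 Nr6a1OE libraries (red) and the 3 mScarlet libraries (blue), with mean and SD, ordered by distance in kb from the upstream end of the gene. The interval at 61.6 kb passed the test, and the means differ least at the outer start.

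Summed over its 7 intervals, Elavl4 had 113.7, 105.6 and 111.6 CPM in Nr6a1OE and 122.4, 127.1 and 125.9 CPM in mScarlet. Every Nr6a1OE library was below every mScarlet library, and the Nr6a1OE mean was 88.1% of the mScarlet mean. The log2 fold change was -0.18 (SE 0.041, adjusted p = 0.00226 over 16488 genes with edgeR). Of the 9 genes 2 closed by this sum, Elavl4 and Celf2, and 0 opened, against a background of 1.07% closed and 0.861% opened among all genes. At an unadjusted edgeR p under 0.05 Rbfox1 was also lower and Rbfox3 higher. The shares of all gene sums at that threshold were not computed, so these 2 have no background. The Elavl4 sum lost its call without Nr6a1OE 2 (adjusted p = 0.0619) and when the intervals called singly were left out of every gene (-0.15, adjusted p = 0.112). Under an assumed variation of 10% between libraries the sum did not pass either, and DESeq2 gave it no adjusted p. Without the intervals over an annotated start of any gene it was -0.29 (adjusted p = 0.000333), a fit chosen after the values were seen. That fit also left out chr4:110152172-110153221, which lies over a start of Gm33070.

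Celf2, a GU-binding regulator of splicing and mRNA decay, closed at 2 of its 25 tested intervals and summed to 216.8, 218.7 and 232.4 CPM in Nr6a1OE and 236.5, 245.8 and 238.9 CPM in mScarlet. The Nr6a1OE libraries lay below the mScarlet libraries, with a mean of 92.6% of theirs, which is -0.11 on the log2 scale (SE 0.030, adjusted p = 0.0277 with edgeR). This call was lost without Nr6a1OE 1 (adjusted p = 0.222), Nr6a1OE 2 (0.171), mScarlet 2 (0.128) or mScarlet 3 (0.0782), and in DESeq2 (0.153). The call was also lost under an assumed variation of 10% between libraries, and without the singly called intervals (-0.08, adjusted p = 0.237). Without the intervals over starts it was -0.15 (adjusted p = 0.00242), again chosen after the values were seen.

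The stronger Celf2 change was at chr2:6607460-6608080, inside the gene and 68.1 kb from its downstream end. It had 2.41, 2.54 and 3.15 CPM in Nr6a1OE and 5.89, 3.35 and 5.75 CPM in mScarlet, so Nr6a1OE lay below mScarlet in every library and Nr6a1OE 3 came close to mScarlet 2. The log2 fold change was -0.89 (SE 0.23, edgeR adjusted p = 0.0143), from a weak interval with a mean of 28.7 fragments per library. It passed in 2 of 6 fits with a library left out, and was lost without Nr6a1OE 1, Nr6a1OE 2, mScarlet 1 or mScarlet 3 (adjusted p 0.00251 to 0.166 over the 6); DESeq2 gave 0.675.

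The second closed Celf2 interval, chr2:7207184-7208407, lay inside the gene 188.5 kb from its upstream end. Signal there was 5.26, 4.66 and 6.06 CPM in Nr6a1OE and 8.49, 8.89 and 6.74 CPM in mScarlet, with no overlap. The log2 fold change was -0.58 (SE 0.17, edgeR adjusted p = 0.0485), close to the threshold. Of the 6 fits with a library left out only that without mScarlet 3 kept the call (adjusted p 0.0297 to 0.226 over the 6), it was also lost when the median of each chromosome was removed (0.0517) and under an assumed variation of 10% between libraries (0.301), and DESeq2 gave 0.926.

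Elsewhere along Celf2 the estimates went both ways. An interval 85.9 kb inside the upstream end, chr2:7309527-7311412, had 9.09, 10.3 and 9.46 CPM in Nr6a1OE and 11.2, 12.5 and 13.1 CPM in mScarlet, without overlap and at -0.36 (SE 0.13, adjusted p = 0.173). The strongest interval, over the GC-rich start printed above, had 54.7, 50.3 and 60.3 CPM in Nr6a1OE and 56.4, 60.2 and 55.6 CPM in mScarlet, and the groups overlapped. Over the 3 start intervals the median log2 fold change was 0.04, with 1 of 3 lower, and over the 22 others it was -0.12, with 16 of 22 lower.

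**Figure D4:**
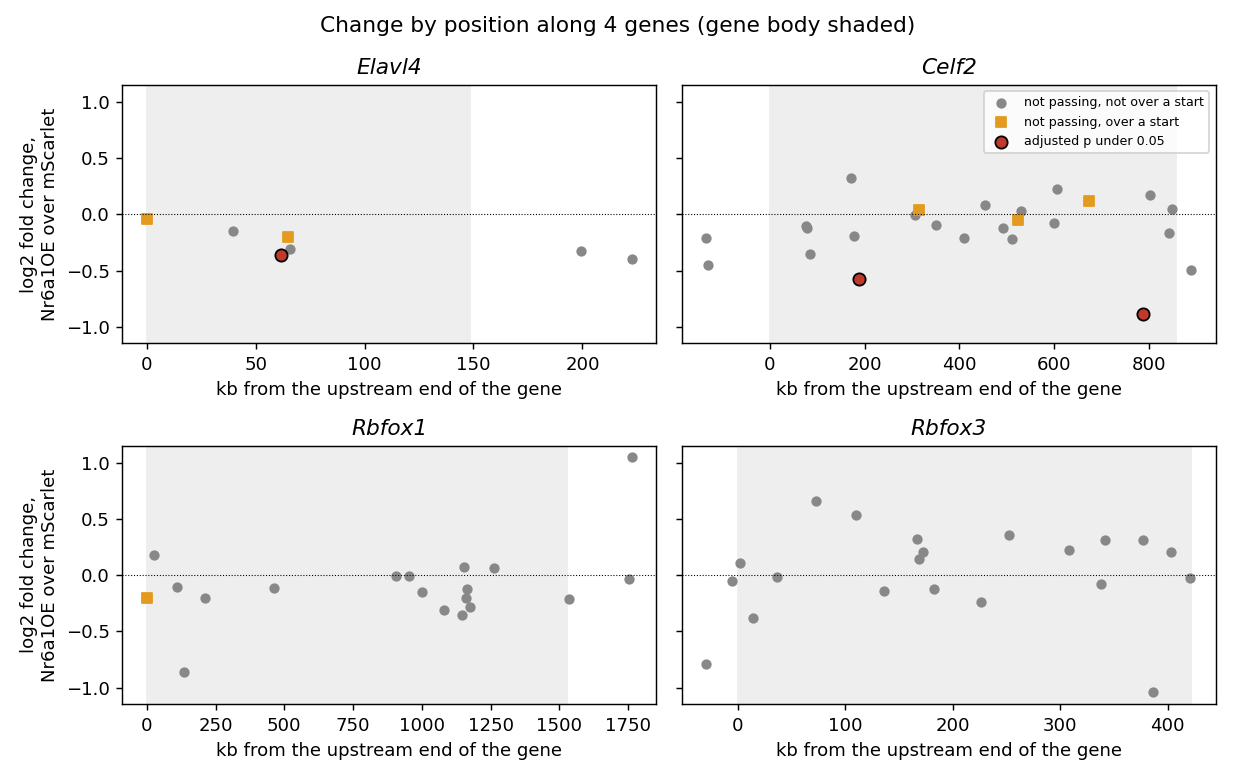
Log2 fold change, Nr6a1OE over mScarlet, of each tested interval of Elavl4, Celf2, Rbfox1 and Rbfox3 against its distance in kb from the upstream end of the gene (gene body shaded). Red circles passed an adjusted p of 0.05 and orange squares lie over an annotated start of the gene shown. All 7 Elavl4 points lie below 0, while the Rbfox3 points lie on both sides.

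The Rbfox genes, which encode splicing factors that recognise the same short RNA motif, had no interval past the edgeR threshold. Before adjustment, 6 of their 54 tested intervals were higher at a p under 0.05 (11.1%, background 5.73%) and 4 lower (7.41%, background 6.87%). Of the 6, 5 were among the 21 of Rbfox3, 1 among the 19 of Rbfox1 and 0 among the 14 of Rbfox2. Rbfox3 lies on chromosome 11, whose median was above 0, as given below. DESeq2 called 0 of the 54. Rbfox1 summed to 105.1, 114.1 and 110.1 CPM in Nr6a1OE and 122.4, 114.7 and 114.8 CPM in mScarlet, with the groups just apart, at -0.10 (SE 0.042, adjusted p = 0.269). Estimates were below 0 at 15 of its 19 tested intervals, and its start interval (chr16:5884516-5886157) was weak, with 4.12, 6.36 and 6.43 CPM in Nr6a1OE and 6.02, 7.87 and 5.87 CPM in mScarlet. The widest upward difference in the family was beyond the end of Rbfox1, at chr16:7647286-7647846, 235.1 kb outside the gene, and is named here after its values were seen. It had 2.27, 2.83 and 3.28 CPM in Nr6a1OE and 2.19, 0.874 and 0.999 CPM in mScarlet, so the groups did not overlap but Nr6a1OE 1 and mScarlet 1 were nearly level (1.05, SE 0.33, adjusted p = 0.0704). Without mScarlet 1 it passed, at 1.56 (adjusted p = 0.0250).

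Rbfox3 summed to 187.5, 190.2 and 180.5 CPM in Nr6a1OE and 171.1, 178.1 and 169.1 CPM in mScarlet, where every Nr6a1OE library was above every mScarlet library. The log2 difference of 0.11 (SE 0.034, adjusted p = 0.0688) did not pass. The gene lies on chromosome 11, whose 4076 tested intervals had a median of 0.06 with only 33.7% lower, and with the median of each chromosome removed the Rbfox3 sum was 0.05 (adjusted p = 0.560). Without mScarlet 2 the sum passed, at 0.13 (adjusted p = 0.0385). Its intervals diverged: 6 of 21 had Nr6a1OE above mScarlet in every library and 2 below. Over all intervals these shares were 7.89% above and 8.73% below, and those of chromosome 11 alone were not computed. Among the higher ones with at least 50 fragments per library, chr11:118744702-118745641 had 9.23, 12.3 and 9.34 CPM in Nr6a1OE and 8.21, 8.31 and 8.12 CPM in mScarlet (0.32, SE 0.15, adjusted p = 0.314). The other of the higher pair, chr11:118569068-118570727, had 11.8, 12.6 and 13.8 CPM in Nr6a1OE and 9.58, 10.49 and 10.6 CPM in mScarlet (0.32, adjusted p = 0.243). In both the groups were apart by a small margin. Weaker intervals of the gene had larger estimates that did not pass in edgeR. They were chr11:118838211-118838908 (0.66, adjusted p = 0.383), chr11:118801014-118802348 (0.53, adjusted p = 0.392) and chr11:118659266-118659786 (0.36, adjusted p = 0.556). Their means were 15, 21.2 and 27.7 fragments per library. The lower estimate nearest the threshold, named after its values were seen, was at chr11:118940480-118941248, outside the gene 29.3 kb beyond its upstream end, with 2.98, 1.70 and 2.65 CPM in Nr6a1OE and 3.97, 3.93 and 4.75 CPM in mScarlet (-0.79, SE 0.25, adjusted p = 0.0751). It passed once the median of each chromosome was removed (-0.84, adjusted p = 0.0466).

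Rbfox2 summed to 226.8, 233.9 and 226.4 CPM in Nr6a1OE and 216.0, 225.9 and 225.2 CPM in mScarlet, a log2 difference of 0.04 (SE 0.031, adjusted p = 0.606). The Nr6a1OE libraries lay above the mScarlet libraries by a narrow margin, and the strongest interval was level, with 106.5, 104.8 and 105.2 CPM in Nr6a1OE and 102.4, 106.8 and 108.7 CPM in mScarlet. Its intervals with the highest estimates and at least 50 fragments, chr15:77214367-77215898 at 0.22 and chr15:77117113-77117885 at 0.21, did not pass (adjusted p = 0.517 and 0.645) and their groups overlapped.

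Elavl2 and Elavl3, the remaining neuronal Hu genes, summed to values that overlapped between groups. Elavl2 had 113.9, 117.8 and 114.6 CPM in Nr6a1OE and 123.6, 120.9 and 116.9 CPM in mScarlet (-0.06, SE 0.041, adjusted p = 0.571). Elavl3 had 89.2, 84.6 and 89.2 CPM in Nr6a1OE and 83.3, 89.8 and 87.6 CPM in mScarlet (0.01, SE 0.047, adjusted p = 0.940). At the Elavl3 start the signal was 66.2, 62.7 and 67.1 CPM in Nr6a1OE and 64.3, 64.4 and 66.1 CPM in mScarlet, while an interval inside the gene, chr9:22035319-22036547, had 8.52, 6.50 and 6.94 CPM in Nr6a1OE and 8.21, 11.4 and 7.87 CPM in mScarlet (-0.31, adjusted p = 0.377). Neither interval separated the groups. At the outermost Elavl2 start (chr4:91399207-91401132), 15.9, 13.4 and 13.6 CPM in Nr6a1OE stood against 16.8, 15.9 and 15.5 CPM in mScarlet, again with overlap.

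Nova1 and Nova2, whose proteins regulate splicing of synaptic transcripts, also overlapped between groups in their sums. Nova1 had 92.8, 98.2 and 99.0 CPM in Nr6a1OE and 96.4, 103.7 and 100.8 CPM in mScarlet (-0.05, SE 0.044, adjusted p = 0.688). Its start interval had 73.9, 79.7 and 80.4 CPM in Nr6a1OE and 80.4, 87.3 and 83.6 CPM in mScarlet, with Nr6a1OE 3 above mScarlet 1 by less than 0.01 CPM, while a distant interval, chr12:46398552-46399938, 298.7 kb beyond the gene, was at 0.22 (adjusted p = 0.587). Nova2 had 158.3, 156.4 and 157.1 CPM in Nr6a1OE and 160.2, 150.5 and 158.9 CPM in mScarlet (0.01, SE 0.036, adjusted p = 0.975). Its start interval (chr7:18924998-18926671) had 52.4, 50.2 and 55.1 CPM in Nr6a1OE and 55.4, 51.4 and 50.7 CPM in mScarlet, with overlap. Of the 9 genes Nova2 had the sum estimate closest to 0, not resolved from that of Elavl3. A p that misses the threshold does not show that the groups are alike, and the standard errors of about 0.04 set the size of difference these sums could resolve.

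**Figure D5:**
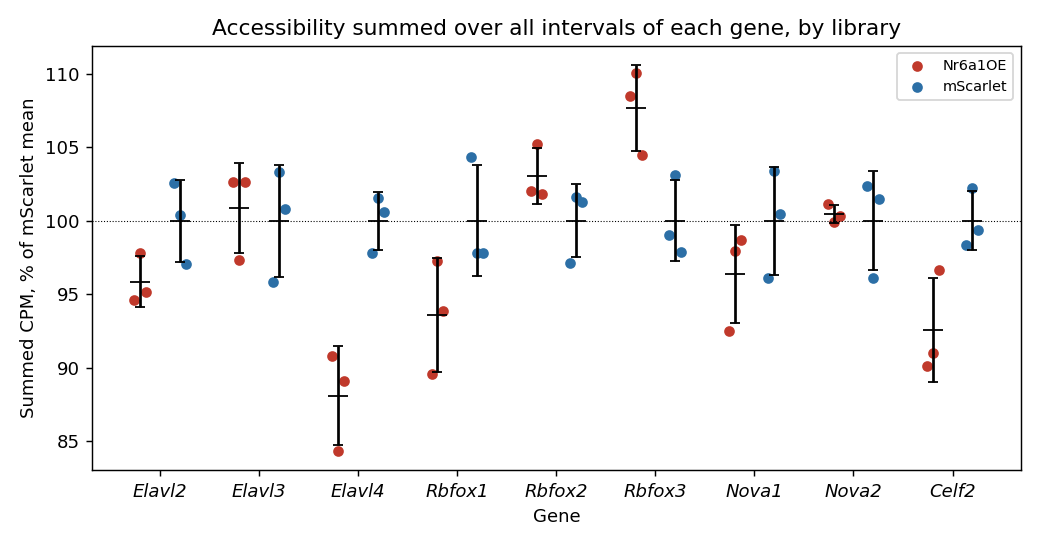
Accessibility summed over all intervals of each gene, as a percentage of the mScarlet mean of that gene, by library of Nr6a1OE (red) and mScarlet (blue), with mean and SD (n = 3 each). The Elavl4, Rbfox1 and Celf2 sums lie below those of mScarlet and the Rbfox2 and Rbfox3 sums above without overlap. The share of sums without overlap over all genes was not computed, so these separations have no background. Only Elavl4 and Celf2 passed an adjusted p of 0.05.

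The 32 other splicing and RNA-binding regulators examined had 211 tested intervals. Of these 1 opened (0.474%, background 0.469%) and 4 closed (1.90%, background 1.26%), shares near those of all intervals. Estimates were higher at 98 and lower at 113, with a median log2 fold change of -0.01. Their start signal summed to 1371 to 1379 CPM in Nr6a1OE and 1357 to 1411 CPM in mScarlet. Among the closed intervals were those inside Mbnl2, a splicing factor of the muscleblind family, with 10.8 ± 0.77 CPM in Nr6a1OE and 15.7 ± 0.77 CPM in mScarlet (SD, n = 3 each; -0.54, adjusted p = 0.00208), inside Rbms3 (-0.39, adjusted p = 0.0378) and 148.6 kb outside Ptbp2, the neuronal polypyrimidine tract-binding protein (-1.43, adjusted p = 0.0454). The Ptbp2 interval was near the floor of the table, with 0.724 ± 0.28 CPM in Nr6a1OE and 1.98 ± 0.13 CPM in mScarlet. The opened interval was 213.0 kb outside Rbms1, with 13.5 ± 0.32 CPM in Nr6a1OE and 9.64 ± 0.56 CPM in mScarlet (0.48, adjusted p = 0.0209). By gene sum, 1 of the 32 closed and 0 opened, against a background of 1.07% closed and 0.861% opened among all genes. Srrm4, an activator of neuronal microexons, had 113.8 ± 3.29 CPM in Nr6a1OE and 125.5 ± 4.99 CPM in mScarlet (-0.14, adjusted p = 0.0323). DESeq2 opened and closed 0 of these intervals.

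Among 18 genes whose transcripts Elavl, Rbfox or Nova proteins are known to bind or splice, 7 of 170 tested intervals closed (4.12%, background 1.26%) and 0 opened (background 0.469%) with edgeR, with 99 lower, 71 higher and a median of -0.03. At an unadjusted p under 0.05, 27 were lower (15.9%, background 6.87%) and 2 higher (1.18%, background 5.73%), and DESeq2 closed 1 and opened 0. Of the 7, 4 lay in Nrxn3, a presynaptic adhesion gene with many splice forms, the widest at chr12:88800914-88802033 with 2.70 ± 0.57 CPM in Nr6a1OE and 6.74 ± 0.86 CPM in mScarlet (SD, n = 3 each; -1.31, adjusted p = 6.54e-07). The other 3 Nrxn3 intervals were at -0.70, -0.62 and -0.43 (adjusted p = 0.00446, 0.0285 and 0.0329). Another was inside Dcc, the netrin receptor (-0.34, adjusted p = 0.0241). Nrxn3 also closed by gene sum (-0.13, adjusted p = 0.000924). Whether chromatin at these genes and at the 9 is linked was not tested.

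In the marker lists, 5 of 130 progenitor intervals closed with edgeR (3.85%, background 1.26%) and 1 opened (0.769%, background 0.469%). With DESeq2 these numbers were 2 and 0. The closed ones were assigned to Nes (-0.45, adjusted p = 9.35e-09), Nkx6-1 (-0.45), Sox2 (-0.72), Notch1 (-1.38) and Cdh2 (-0.32), and the opened one to Pax6 (1.12). The Notch1 and Pax6 intervals were weak, with means of 14 and 18.5 fragments per library. That assigned to Pax6 lay inside Elp4, 92.8 kb from Pax6. Post-mitotic neuron markers had 0 of 68 intervals past the threshold in edgeR or DESeq2. At an unadjusted p under 0.05, 9 were lower (13.2%, background 6.87%) and 0 higher (background 5.73%). Of the 68, 40 were lower (background 49.2%), with a median log2 fold change of -0.07, against -0.05 for the member intervals. By sum, 10 of 12 neuron markers were lower, with a median of -0.04, and the share of lower sums over all genes was not computed. The sum of Dcx, a microtubule protein of young neurons, passed and was lower, with 22.2 ± 1.11 CPM in Nr6a1OE and 27.4 ± 1.84 CPM in mScarlet (SD, n = 3 each; -0.30, adjusted p = 0.0303). An interval of the endothelial gene Kdr closed (-0.57, adjusted p = 0.0293) and one of the neural crest gene Ets1 opened (0.41, adjusted p = 0.0359) in edgeR, neither of which passed in DESeq2. No interval of the pluripotency, mesoderm, endoderm or glial genes passed in edgeR or DESeq2. At an unadjusted p under 0.05, 1 of 17 pluripotency (5.88%) and 1 of 31 glial intervals (3.23%) were lower, against a background of 6.87%. Higher at that threshold were 3 of 18 mesoderm (16.7%), 1 of 22 endoderm (4.55%) and 4 of 31 glial intervals (12.9%), against a background of 5.73%. By sum, Nes (-0.14, adjusted p = 0.0143) and Nkx6-1 (-0.11, adjusted p = 0.00859) also closed, while 7 of the 12 progenitor sums were higher and 5 lower, with a median of 0.02.

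Over the 6 libraries, the intervals on other chromosomes whose signal went most like that of the closed Elavl4 interval were near Calr3, Lmx1b and Tia1, with Pearson correlations of log2 CPM of 0.993, 0.993 and 0.991. For the closed Celf2 interval at chr2:6607460-6608080 they were near Tpra1, Lbr and Mitf (0.999, 0.995 and 0.994), and for that at chr2:7207184-7208407 near Pou4f2 and Gabrg1 (0.990 and 0.989). With 6 libraries that share a group difference, 58 of 15836 intervals searched exceeded 0.95 for Elavl4, and 61 and 43 of 15551 for the Celf2 pair, and the likeness is given as a description.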

How the data were processed

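ATAC-seq was measured in 6 libraries, 3 Nr6a1OE and 3 mScarlet. The authors deposited raw fragment counts for 52223 consensus intervals. Per the file headers, featureCounts 2.0.1 counted read pairs in every interval that held at least 0.2 of the fragment. The build was mm10, per the submitters' processing notes. The sources used here do not give the aligner, peak caller, duplicate handling, Tn5 shift or interval merging, and fragments shared by neighbouring intervals count in each. Each library held between 6857763 and 8030029 such fragments.

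Counts were filtered with filterByExpr (586 intervals removed, 51637 tested), scaled by TMM and compared with edgeR 4.0.16 (quasi-likelihood test, R 4.3.3), with Benjamini-Hochberg adjustment over the whole table. CPM values are counts scaled to the TMM-adjusted library size. Opened and closed mean higher or lower in Nr6a1OE at an adjusted p under 0.05. The SE is the fold change over the root of F. Counts of all intervals of a gene were also summed and tested likewise over 16488 genes. Genes came from a RefSeq table of GRCm38.p6 (21883 protein-coding genes) that has no exons, so positions inside genes are not split further. Qki was matched as Qk.

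Library pairs within a group differed slightly more than counting noise (chi-square over its degrees of freedom between 1.046 and 1.099, with p of at most 1.5e-13). With this many intervals a small excess gives a small p, and it does not show that the libraries are separate cultures. The common variation between libraries estimated by edgeR was 1.47%. Each library was counted as 1 replicate. Members, gene lists and tests were chosen with earlier results of these data known. Intervals named were those past the threshold, the strongest and the strongest at a gene end (within 1 kb) of each gene, and the 5 highest and 5 lowest fold changes among those with at least 50 fragments; for likeness, 3 per closed interval with at least 100 fragments and a gene end within 100 kb. A few results that the rule would name are not reported here. Alternatives were RLE scaling, no filter, DESeq2 1.42.0, a replicate block, chromosome medians removed, an assumed variation of 10% between libraries, Nr6a1OE 1 and 3 summed, each library left out, a 100 kb limit and nearest gene ends only, and, added after the values were seen, gene sums without called or start intervals.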

Additional observations from a re-analysis of the deposited data

How the results depend on the processing

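The 3 closed and 0 opened member intervals, the 2 closed gene sums and the 4 closed and 1 opened intervals of other regulators came to the same numbers under RLE scaling, no filter and chromosome medians removed, in the last case with an Rbfox3 interval in place of a Celf2 one. With Nr6a1OE 1 and 3 summed, 3 member intervals, 2 gene sums and 3 intervals of other regulators closed. With DESeq2 or an assumed variation of 10% between libraries, 0 member intervals, 0 gene sums and 0 intervals of other regulators were closed, and 0 were opened. DESeq2 gave an adjusted p only for the sums of Rbfox2, Rbfox3, Nova2 and Celf2, so its result for sums covers those genes alone. It gave none for the Elavl4 sum. Without the singly called intervals 0 gene sums closed. Leaving out each library gave 0 to 2 closed and 0 to 1 opened member intervals, 0 to 2 closed and 0 to 1 opened gene sums, and 1 to 2 closed and 0 to 1 opened intervals of other regulators. The interval opened without mScarlet 1 (Rbfox1) and the sum opened without mScarlet 2 (Rbfox3) were not called with all libraries. The 100 kb limit and nearest gene ends alone gave 3 closed intervals, and the limit 2 closed sums.

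Same-numbered libraries did not deviate together (correlations 0.0319, -0.025 and -0.0302 over 18021 intervals, with 1 of 3 pairs best with its own number), so replicate numbers were not taken as pairs. With a replicate block 2 member intervals, 2 gene sums and 3 intervals of other regulators closed, and the Celf2 interval at 7207184 had an adjusted p of 0.0521.

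Signs turned at uncalled values, and the cause was not tested. On the log2 scale, leaving out each library gave -0.011 to 0.038 for the Elavl3 start, -0.077 to 0.0017 for the outer Elavl4 start, -0.017 to 0.155 for the strongest Rbfox1 interval, -0.030 to 0.016 for that of Rbfox2, -0.125 to 0.0099 for that of Celf2, -0.072 to 0.044 for that of Nova2, -0.033 to 0.046 for the Nova2 start, -0.015 to 0.038 for the Elavl3 sum and -0.021 to 0.021 for the Nova2 sum. Without start intervals the Nova1 sum was 0.10 and the Nova2 sum -0.0040. A typical member interval held 45.75 fragments per library, so small changes at single intervals were not detectable at this depth.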
